A study of Mus musculus with 135 samples.

Results

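H3K4me3 was compared between hepatocytes and cardiomyocytes of the founder strains of the BXD mouse panel. The 12 libraries compared, of 135 samples in the series (123 of them H3K4me3), are 3 of hepatocytes and 3 of cardiomyocytes from each of C57BL/6J (B6) and DBA/2J (D2). The members of the comparison are the peaks of the hepatocyte table (29138) and of the cardiomyocyte table (23809), which were matched one to one where their mm10 reference intervals overlapped reciprocally by at least 50%. That gave 8137 matched peaks, which could be tested with strain as a covariate, and left 15281 hepatocyte peaks and 10464 cardiomyocyte peaks with no overlapping peak in the other table. The remaining 5720 hepatocyte and 5208 cardiomyocyte peaks overlapped a peak of the other table by less than that, or lost it to a better match. The series mapped this mark in male germ cells, hepatocytes, cardiomyocytes and embryonic stem cells of the founders and of BXD lines, to find loci that set its level. The cells of all 4 groups came from female mice, labelled 8 weeks old and with no treatment. Their chromatin was digested with micrococcal nuclease, precipitated with the same antibody lot (2746331), and made into libraries with the same kit. The labels do not say whether the 3 libraries of a group came from separate animals, so the p-values measure the spread between these samples, which may be technical. They name no sort or marker by which either cell type was purified.

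H3K4me3 is the trimethylated form of lysine 4 of histone H3. It is laid down around start sites of transcription, broadly at active genes of a cell's own program and also at CpG-rich promoters that are active in nearly every cell. Hepatocytes are the epithelial cells of the liver that secrete most plasma proteins, make bile acids, detoxify drugs and nitrogen, and store and release glucose. Their identity is tied to the HNF4, FOXA, C/EBP and ONECUT families of transcription factors. Cardiomyocytes are the contractile cells of the heart. Their program rests on GATA, NKX2-5, TBX, HAND, MEF2 and SRF factors and serves the sarcomere, calcium cycling, electrical conduction and the oxidation of fatty acids.

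The promoter sequences below show the kinds of start site at which the tables differed, read from RefSeq promoters on GRCm38.p6, the assembly behind mm10. Each runs 5′ to 3′ on the gene's own strand and ends at the base before the start site. Capitals mark exact matches, on either strand, to a short list of motifs. Those of the liver factors were TTGCNNAA for C/EBP, CAAAGTCCA for HNF4 and, for the FOXA family, TGTTTAC. For TEAD factors of the heart the letters searched were GGAATG, while for the GATA family of both organs they were AGATAA. The MEF2 box and the CArG box of SRF are given by name because their patterns use other letters. No capitals overlap another motif of the set. Alb (chr5:90460720-90460869, plus strand) and Cyp8b1 (chr9:121916306-121916425, minus strand) stand for promoters with a peak in the hepatocyte table alone, and Foxa1 (chr12:57546112-57546311, minus strand) for a matched peak over 2-fold higher in hepatocytes. Alb encodes serum albumin and Cyp8b1 the sterol 12-alpha-hydroxylase of bile acid synthesis.
Alb: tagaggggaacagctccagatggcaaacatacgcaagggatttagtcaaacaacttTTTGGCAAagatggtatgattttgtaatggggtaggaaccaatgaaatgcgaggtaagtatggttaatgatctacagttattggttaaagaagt
Cyp8b1: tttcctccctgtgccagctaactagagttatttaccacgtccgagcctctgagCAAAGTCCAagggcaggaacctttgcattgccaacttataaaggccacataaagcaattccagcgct
Foxa1: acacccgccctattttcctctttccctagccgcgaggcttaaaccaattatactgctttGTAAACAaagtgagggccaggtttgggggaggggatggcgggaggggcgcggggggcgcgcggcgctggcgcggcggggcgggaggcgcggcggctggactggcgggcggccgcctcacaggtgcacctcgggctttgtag
Myl3 (chr9:110763478-110763677, plus strand), Casq2 (chr3:102086295-102086414, plus strand) and Nppb (chr4:147985750-147985899, plus strand) have a peak in the cardiomyocyte table alone. They encode a ventricular myosin light chain, the calcium store protein calsequestrin and B-type natriuretic peptide.
Myl3: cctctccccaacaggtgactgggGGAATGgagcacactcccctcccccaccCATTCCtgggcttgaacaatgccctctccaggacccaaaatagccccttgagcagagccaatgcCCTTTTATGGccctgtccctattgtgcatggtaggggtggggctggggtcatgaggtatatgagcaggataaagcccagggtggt
Casq2: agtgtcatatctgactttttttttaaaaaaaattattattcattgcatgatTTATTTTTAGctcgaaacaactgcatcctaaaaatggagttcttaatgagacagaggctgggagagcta
Nppb: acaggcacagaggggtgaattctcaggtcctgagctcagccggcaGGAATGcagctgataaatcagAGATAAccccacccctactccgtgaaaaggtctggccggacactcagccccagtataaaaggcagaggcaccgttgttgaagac
Eef2 (chr10:81176481-81176630, plus strand), a translation elongation factor that every cell needs, has a matched peak over 2-fold higher in cardiomyocytes, and its promoter holds none of the motifs.
Eef2: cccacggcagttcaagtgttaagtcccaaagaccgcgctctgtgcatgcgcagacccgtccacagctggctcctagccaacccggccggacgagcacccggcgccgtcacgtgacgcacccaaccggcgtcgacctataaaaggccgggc
The contrast in base composition is visible in the letters: the 300-base window around the Eef2 start site holds 34 CpG dinucleotides and that of Foxa1 26, against 3 for Alb and 1 for Myl3. Over 32817 such RefSeq windows the median was 7 CpG. It was 6 in the 1738 windows with a peak in the hepatocyte table alone and 14 in the 2324 with one in the cardiomyocyte table alone. The 6822 windows at matched peaks within 2-fold or not called had a median of 23. The HNF4 motif was found in 1.84% of windows with a hepatocyte peak alone, 0.215% of those with a cardiomyocyte peak alone and 0.475% of all windows. The FOXA motif stood in 5.70%, 2.80% and 3.65% of these sets, and the C/EBP motif in 15.6%, 9.08% and 10.8%. The longer HNF1 motif was found in 0 windows of either of these sets with a peak in 1 table alone, and in 3 of all 32817. For the motifs of heart factors, the MEF2 box was in 2.76%, 3.40% and 3.19%, the CArG box in 1.78%, 1.51% and 1.63%, GATA in 12.2%, 8.65% and 11.2%, and TEAD in 15.4%, 13.5% and 14.7%. A further 307 windows lay in a hepatocyte peak that a cardiomyocyte peak overlapped only away from the start site. They held 2 of the 3 HNF1 windows, with HNF4 in 0.65%, FOXA in 11.1% and C/EBP in 20.2%. The 612 windows of the reverse case held 0, with 0.49%, 2.78% and 7.84%. These shares are descriptions of letters in fixed windows, and base composition moves with the same sets.

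The tables held 9834615 to 14733225 reads in peaks for each hepatocyte library, 6839220 to 8338075 for each B6 cardiomyocyte library and 2618483 to 4104501 for each D2 cardiomyocyte library. Matched peaks took 48.3 to 49.4% of the hepatocyte reads and 45.1 to 47.4% of the cardiomyocyte reads. Levels are given as CPM, the reads of a peak scaled to the same TMM-corrected total over matched peaks in every library, and they are not divided by peak width. Over matched peaks, the correlation of log2 levels was 0.960 to 0.995 between libraries of a group, 0.909 to 0.967 between strains of a cell type and 0.766 to 0.866 between cell types. These correlations run across peaks, which are not independent replicates. The first principal component, with 78.2% of the variance, separated the cell types, and the second, with 9.36%, the strains. On the first one, B6 cardiomyocyte replicate 2 (40.0) lay with the D2 cardiomyocytes (40.8 to 44.9) and apart from replicates 1 (28.7) and 3 (27.2) of its group.

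Matched peaks were mostly promoters and the peaks of 1 table mostly were not. Within 1 kb of a start site lay 6687 of the 8137 matched peaks, 2377 (15.6%) of the 15281 hepatocyte peaks with no overlapping cardiomyocyte peak, and 2675 (25.6%) of the 10464 in the reverse case. The unshared peaks were also small: their median level was 14.0 CPM in hepatocytes and 29.3 CPM in cardiomyocytes, and they held 22.9 to 24.1% and 21.9 to 23.7% of the reads of their tables. Of the unshared cardiomyocyte peaks, 9234 were called on the reference genome alone, against 1432 of the unshared hepatocyte peaks. An unshared peak has no reads counted in the other cell type, so it has no fold change and no test. Absence from a table is also no measure of absence of the mark: among genes that every cell uses, Polr2a, the large subunit of RNA polymerase II, had no hepatocyte promoter peak among those analysed here, and Sdhb, a succinate dehydrogenase subunit, no cardiomyocyte one.

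**Figure D1:**
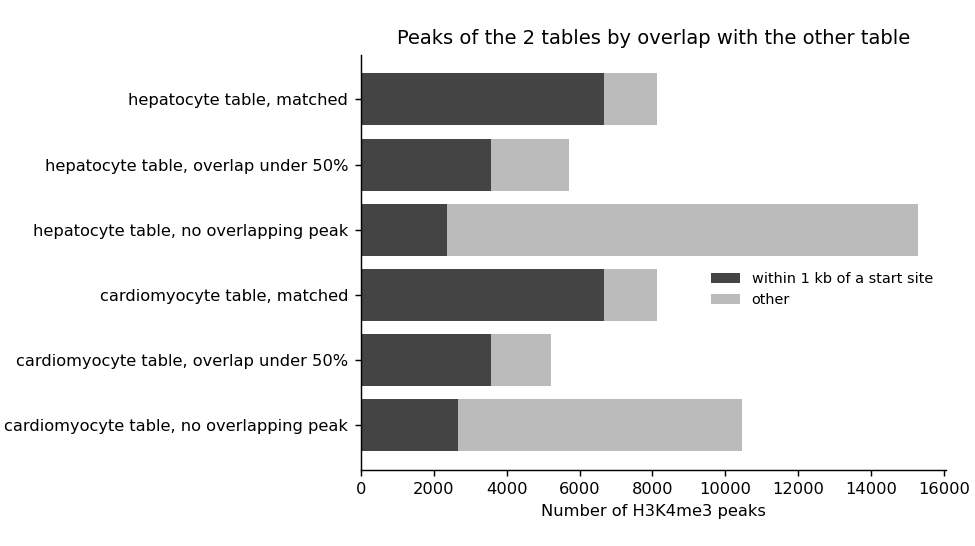
Number of H3K4me3 peaks (x axis) in each table by overlap with the other table, divided into peaks within 1 kb of a start site (dark) and others (light). The bars of matched peaks are mostly dark, while the 15281 hepatocyte and 10464 cardiomyocyte peaks with no overlapping peak are mostly light.

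At the matched peaks, calls went either way in near-equal number, with those over 2-fold mostly toward cardiomyocytes and those within 2-fold more often toward hepatocytes. By edgeR's quasi-likelihood test with strain as covariate, 3222 of the 8137 (39.6%) were higher in hepatocytes and 3196 (39.3%) higher in cardiomyocytes, at a Benjamini-Hochberg adjusted p under 0.05. Over 2-fold, 256 (3.15%) were higher in hepatocytes and 1263 (15.5%) higher in cardiomyocytes. Called but within 2-fold were 2966 and 1933. In either direction 78.9% were called, and at 4754 peaks (58.4%) the 6 libraries of 1 cell type did not overlap the 6 of the other. Scaling to the matched peaks centres their differences near 0, so the near-equal split is largely set by the scaling. Scaled by each table's own total, 3592 were higher in hepatocytes and 2900 in cardiomyocytes, 342 and 1144 of them over 2-fold. For 5927 of the 8137 peaks (72.8%), called or not, the 95% interval of the difference in the reported fit lay within 2-fold. Most matched peaks thus had scaled levels within 2-fold. The scaled levels do not measure the total amount of the mark in a cell type. Interval width bears on these counts: hepatocyte intervals had a median width of 5454 bp and cardiomyocyte intervals 4173 bp. The hepatocyte interval was the wider at 251 of the 256 peaks over 2-fold higher in hepatocytes, at 133 of the 1263 over 2-fold higher in cardiomyocytes and at 5097 of the other 6618. Counted per base of each table's own interval, 1018 peaks were higher in hepatocytes and 5029 in cardiomyocytes, with the median difference at -0.31 against 0.0036 (log2). With that shift taken out, 117 and 548 were over 2-fold higher. All counts of matched peaks cover only regions with a peak in both tables. The part of that selection in their direction was not tested. In bulk samples such as these, fewer cells that carry the mark and less of it per cell cannot be told apart.

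**Figure D2:**
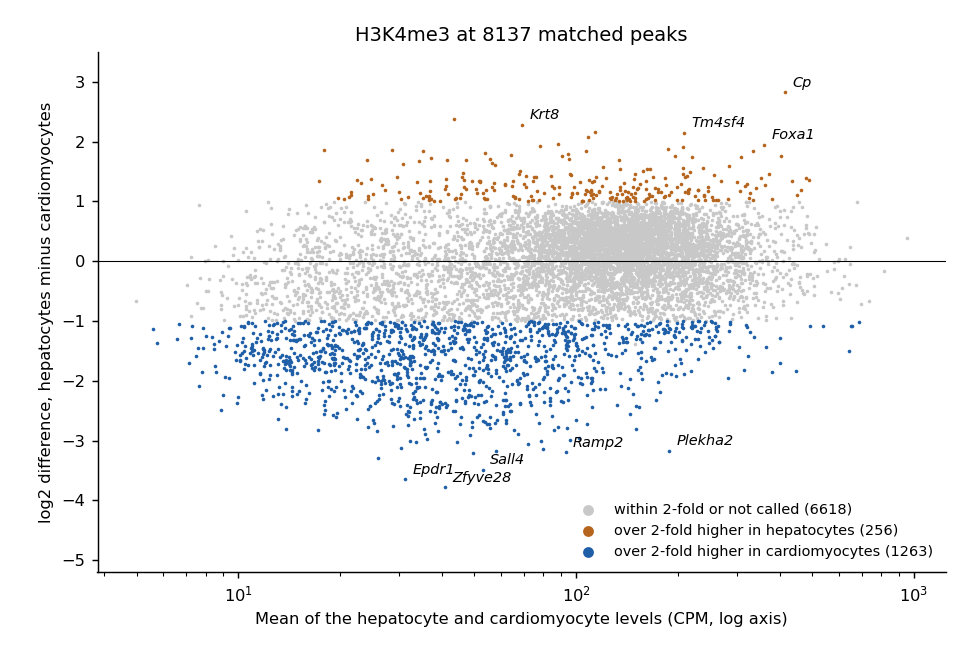
Each point is 1 of the 8137 matched peaks: mean level of the 2 cell types in CPM (x, log axis) against the log2 difference, hepatocytes minus cardiomyocytes (y). The 256 peaks over 2-fold higher in hepatocytes (orange) spread over all levels, and the 1263 over 2-fold higher in cardiomyocytes (blue) are densest at low levels.

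Among promoters of protein-coding genes (6354 matched peaks), 2779 (43.7%) were higher in hepatocytes and 2297 (36.2%) in cardiomyocytes, with 157 (2.47%) and 804 (12.7%) over 2-fold. In either direction 79.9% were called, and at 60.1% the libraries of the cell types did not overlap. The promoters with the largest hepatocyte excess included genes of a plasma protein, of transcription factors and of a keratin. Cp, which encodes the copper-carrying plasma ferroxidase ceruloplasmin, gave 813, 742 and 658 CPM in B6 hepatocytes, 771, 739 and 660.0 in D2 hepatocytes, 129.6, 85.3 and 169 in B6 cardiomyocytes and 87.7, 72.7 and 70.3 in D2 cardiomyocytes (chr3:19952690-19966503 in the hepatocyte table and chr3:19958172-19965714 in the cardiomyocyte table). Its difference was 2.83 ± 0.16 (SE, adjusted p = 8.6e-10) on the log2 scale, or 7.12-fold, and the lowest hepatocyte library stood far above the highest cardiomyocyte library. Foxa1, the pioneer factor that opens liver enhancers, gave 595, 571 and 541 CPM in B6 hepatocytes, 582, 564 and 569 in D2 hepatocytes, 118, 158 and 120.3 in B6 cardiomyocytes and 180.1, 162 and 156 in D2 cardiomyocytes. The 6 hepatocyte libraries lay within 541 to 595 CPM and the difference was 1.95 ± 0.085 (SE, adjusted p = 3.3e-11).

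Other promoters among the 10 with the largest hepatocyte excess were Krt8, a keratin of simple epithelia (2.28), Tm4sf4, a membrane protein of the tetraspan family (2.15), Lrrc3 (2.07), the forkhead factor Foxp2 (1.88), the thiamine transporter Slc19a2 (1.84) and the epithelial trafficking GTPase Rab17 (1.76). Rtp4 (1.90) shared its peak with Masp1, a serine protease of the lectin pathway of complement that the liver secretes, and reads cannot be assigned to one of them. Krt8 had the lowest level of them, 95.6 to 128 CPM in hepatocytes and 13.9 to 38.5 in cardiomyocytes. The tables give each peak a reference interval and an interval on a second genome. At Lrrc3 the second-genome interval of the cardiomyocyte table was only 35.6% as long as the reference interval, which moves with the low D2 cardiomyocyte levels (23.1, 38.5 and 32.7 CPM), and its part in the difference was not tested. In B6 alone the Lrrc3 difference was 1.75.

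The promoters with the largest cardiomyocyte excess were of genes of varied function, and no sarcomere gene was among the 10. Of the 22 sarcomere genes listed, only 2 had a matched promoter peak and could be ranked. Ramp2, the partner protein that turns the calcitonin receptor-like receptor into an adrenomedullin receptor, gave 15.4, 18.1 and 20.8 CPM in B6 hepatocytes, 17.1, 22.1 and 15.6 in D2 hepatocytes, 163, 180.2 and 158 in B6 cardiomyocytes and 160.2, 183 and 165 in D2 cardiomyocytes (chr11:101244887-101247854 in the hepatocyte table and chr11:101244746-101249794 in the cardiomyocyte table). Its difference was -3.19 ± 0.093 (SE, adjusted p = 1.4e-12), or 9.15-fold, and no library of a cell type approached the other. Plekha2, a phosphoinositide-binding adaptor, gave 30.2, 40.2 and 41.9 CPM in B6 hepatocytes, 33.8, 45.4 and 32.7 in D2 hepatocytes, 362, 349.8 and 352 in B6 cardiomyocytes and 316, 294 and 366 in D2 cardiomyocytes. It had the highest level of the 10 cardiomyocyte promoters, with a difference of -3.17 ± 0.093 (SE, adjusted p = 1.7e-12). St3gal2, a Golgi sialyltransferase, gave 13.3, 15.5 and 14.4 CPM in B6 hepatocytes, 15.8, 13.3 and 20.7 in D2 hepatocytes, 119, 126 and 113 in B6 cardiomyocytes and 137, 130.3 and 149 in D2 cardiomyocytes, a difference of -3.05 ± 0.10 (SE, adjusted p = 2.8e-12).

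The remaining 7 were Zfyve28, a FYVE-domain protein of endosomes (-3.78), Epdr1, an ependymin-related lysosomal protein (-3.65), Sall4, a zinc-finger factor known from stem and germ cells (-3.49), Prr5l, which binds the mTORC2 complex (-3.20), Ppic, the secretory-pathway cyclophilin C (-3.17), Shisa5, a membrane adaptor (-3.15), and Prelid3a, a mitochondrial lipid-transfer protein (-3.13). Sall4 gave 5.7, 4.74 and 3.7 CPM in B6 hepatocytes, 10.6, 15.7 and 14.3 in D2 hepatocytes, 106, 109 and 101 in B6 cardiomyocytes and 75.6, 87.6 and 101 in D2 cardiomyocytes. The hepatocyte level at Zfyve28 ran from 1.51 to 13.8 CPM and at Epdr1 from 0.84 to 12 CPM, so the size of these folds rests on few reads. All of these promoters kept their direction in each strain taken alone. The hepatocyte peaks of Zfyve28, Sall4, Prr5l, Ramp2, Ppic and Prelid3a were called on the second genome alone. That of Epdr1 was called on the reference genome alone. Of the hepatocyte peaks at all 8137 matches, 171 were called on the second genome alone and 125 on the reference genome alone.

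**Figure D3:**
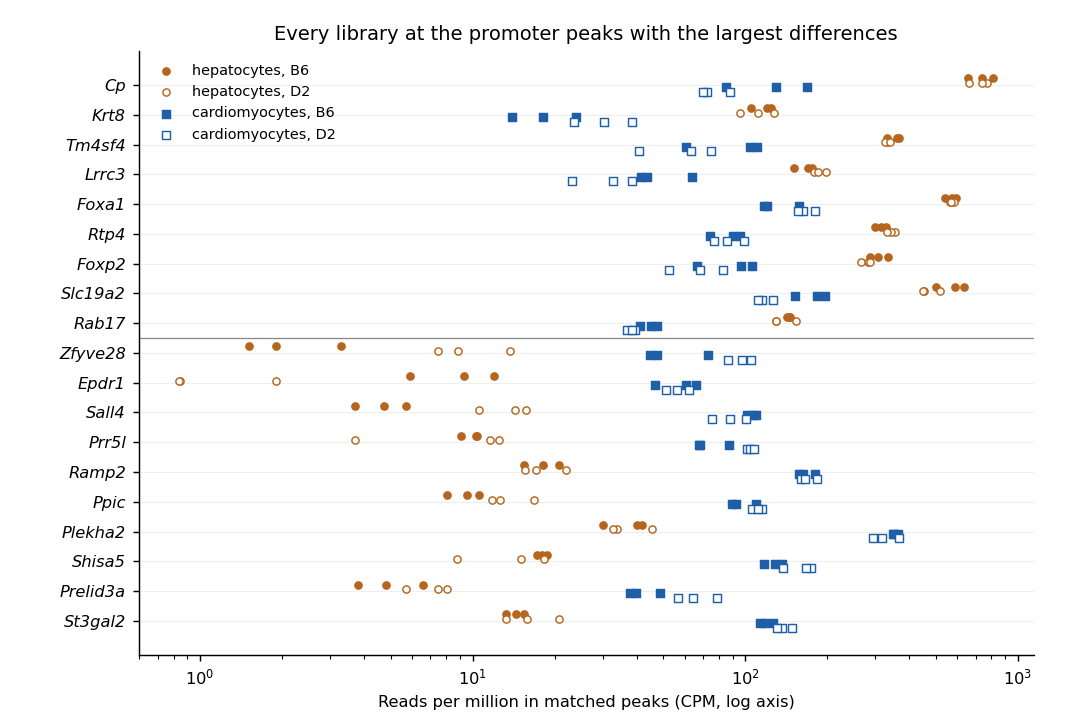
CPM of every library (x, log axis) at 9 of the 10 protein-coding promoter peaks with the largest excess in hepatocytes (above the line) and the 10 with the largest in cardiomyocytes (below it); orange circles are hepatocytes, blue squares cardiomyocytes, filled B6 and open D2. In each row the 6 orange and 6 blue points stay apart, and Zfyve28, Epdr1 and Sall4 also show a gap between B6 and D2 hepatocytes.

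Matched peaks away from start sites leaned toward cardiomyocytes. Of 1450 such peaks, 341 were higher in hepatocytes and 746 in cardiomyocytes, with 79 and 391 over 2-fold. Their median difference was -0.37, against 0.055 at the 6687 promoter peaks. This lean covers only regions with a peak in both tables. Away from start sites, 12904 hepatocyte and 7789 cardiomyocyte peaks had no overlapping peak in the other table and could not be tested. The part of this selection in the lean was not tested. The largest hepatocyte excess lay in an intron of Dpf3 (1.92), which encodes a subunit of the BAF chromatin remodeller, between genes nearest to Enpp7, an alkaline sphingomyelinase (1.85), at an exon of the guanine nucleotide exchange factor gene Arhgef10l (1.8), near Gbe1, the glycogen branching enzyme (1.73), and near the receptor phosphatase Ptprd (1.70). Dpf3 gave 117, 128 and 121 CPM in B6 hepatocytes, 132, 127 and 120.1 in D2 hepatocytes, 30.7, 39.1 and 35.5 in B6 cardiomyocytes and 31.0, 31.5 and 25.6 in D2 cardiomyocytes, a difference of 1.92 ± 0.083 (SE, adjusted p = 3.3e-11). The largest cardiomyocyte excess was near Tns3, a tensin of focal adhesions (-2.78), Syne3, a nesprin of the nuclear envelope (-2.63), the homeobox gene Meis1 (-2.61), the RNA-binding protein gene Lin28b (-2.50) and the non-coding Slain1os (-2.49). The Meis1 peak gave 11.4, 16.9 and 13.0 CPM in B6 hepatocytes, 14.4, 14.8 and 15.8 in D2 hepatocytes, 82.7, 89.1 and 89.1 in B6 cardiomyocytes and 86.7, 95.6 and 82.2 in D2 cardiomyocytes.

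Many genes known from 1 of the cell types had their promoter peak in 1 table, where the tables allow a description and no test. The hepatocyte promoters with the highest level among these peaks included genes of metabolic enzymes, transporters and a transcription factor. Cps1, the first enzyme of the urea cycle, gave 861, 946 and 778 CPM in B6 and 1088, 1124 and 769 in D2 (chr1:67109590-67145313). Hnf4a, the nuclear receptor at the centre of the hepatocyte program, gave 713, 740.1 and 623 CPM in B6 and 783, 742 and 585 in D2 (chr2:163534475-163556524). In both the D2 libraries lay in or near the B6 range. Others among the 10 highest were Gc, the vitamin D-binding protein (897 ± 58.8 CPM, SD, n = 6), the RNA-editing cofactor A1cf (830.3 ± 61.7), Bbox1 of carnitine synthesis (743 ± 32.9), Cyp2c29 (652 ± 70.7), Mat1a, which makes S-adenosylmethionine (644 ± 80.8), the canalicular exporter Abcc2 (631 ± 96.7) and the amino acid transporter Slc38a4 (621 ± 82.7).

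The cardiomyocyte promoters chosen in the same way included genes of heart transcription factors, a channel and a growth factor of vessels. Hand2, a bHLH factor of heart development, gave 881, 813 and 999 CPM in B6 and 799, 658 and 719 in D2 (chr8:57307460-57335680). Jph2, the junctophilin that holds the sarcoplasmic reticulum at the T-tubule, gave 673, 794 and 731 CPM in B6 and 641, 661 and 606 in D2 (chr2:163367412-163401420). The potassium channel gene Kcnh2 had 526 ± 75.5 CPM, the T-box factor gene Tbx20 514 ± 97.9 and Meis1 543 ± 68.7 (SD, n = 6). Pdgfb, a growth factor of endothelium, had 528 ± 74.3, Nrarp, a Notch pathway regulator, 562 ± 86.0 and the class IIa deacetylase gene Hdac7 781 ± 62.0. Klf9, a Krüppel-like factor responsive to glucocorticoid, gave 814, 852 and 913 CPM in B6 and 489, 467 and 513 in D2, and Afap1l1 gave 756, 789.6 and 871 CPM in B6 and 417, 371 and 345 in D2. Their B6 and D2 libraries did not overlap, and their second-genome intervals were 52.7% and 40.5% as long as the reference intervals. Whether length accounts for the gap was not tested.

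Promoters were then counted over lists of genes grouped by role. Of all 21924 protein-coding genes, 1272 (5.8%) had a promoter peak in the hepatocyte table alone, 1771 (8.08%) in the cardiomyocyte table alone, 3686 one that a peak of the other table overlapped by less than 50%, at the same start site or not, 7457 in a matched peak and 7710 (35.2%) in neither. Of the 7457 genes with a matched promoter peak, 3351 (44.9%) were higher in hepatocytes and 2636 (35.3%) in cardiomyocytes, 174 (2.33%) and 849 (11.4%) of them over 2-fold, and the median difference was 0.081. For genes with such partial overlap, reads were summed over each cluster of overlapping peaks, a fit added after the data were seen. Of all 12928 clusters 43.1% were higher in hepatocytes and 41.9% in cardiomyocytes, 10.7% and 24.8% over 2-fold. Of 11143 genes in such clusters, 5588 (50.1%) were higher in hepatocytes and 3909 (35.1%) in cardiomyocytes, 1134 (10.2%) and 1883 (16.9%) of them over 2-fold. A cluster can hold more than 1 gene and differs in width between the tables, so these sums are given as a second measure. Where a gene had a promoter peak in only 1 cell type, the other's reads came from peaks over 1 kb from its start site. Their CPM are scaled to the total over clusters and lie on a lower scale than the CPM of single peaks.

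Of 20 plasma protein genes, 13 had a promoter peak in the hepatocyte table alone and 5 one in partial overlap with a cardiomyocyte peak. All 5 of those were over 2-fold higher in hepatocytes when summed. Among the 13, Serpinc1, the antithrombin gene, had 614 ± 82.4 CPM, the fibrinogen chain gene Fgg 543 ± 60.9, the apolipoprotein gene Apob 463 ± 73.2 and Alb 267 ± 81.4 (SD, n = 6). The summed region shared by Apoa1 and Apoc3 held 225 to 337 CPM in hepatocytes and 12.2 to 21.8 in cardiomyocytes, a difference of 4.08 (adjusted p = 4.7e-13) in the edgeR quasi-likelihood fit. That of Fgb, another fibrinogen chain, differed by 2.72, of transferrin (Trf) by 3.39 and of transthyretin (Ttr) by 4.62. The exceptions were Ahsg, with no promoter peak among those analysed here, and Apoa2, with one in the cardiomyocyte table alone (104 ± 27.6 CPM).

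Of 16 genes for hepatocyte transcription factors, 4 had a matched peak and all 4 were higher in hepatocytes. Foxa1 is given above. Nr0b2, the repressor SHP of bile acid feedback, spanned 279.6 to 403 CPM in hepatocytes and 72.7 to 120.1 in cardiomyocytes, a difference of 1.74 ± 0.10 (SE, adjusted p = 5.6e-10). Prox1, a homeobox factor of liver and lymphatic endothelium, spanned 542 to 673 and 263 to 311 CPM, a difference of 1.11 ± 0.069 (SE, adjusted p = 9.7e-10). Cebpa differed least, by 0.48 ± 0.12 (SE, adjusted p = 0.00197), its libraries overlapped, and per base of interval the difference was -0.019. Another 4, among them Hnf4a and the nuclear receptor genes Nr1i2 and Nr1h4, had a peak in the hepatocyte table alone. The 6 with partial overlap were all higher in hepatocytes when summed, among them Foxa2 by 3.68, Onecut1 by 2.96, Onecut2 by 2.81, Nr5a2 by 1.82 and Foxa3, whose region includes neighbouring genes, by 0.47. Nr1i3 and Creb3l3 had no promoter peak among those analysed here. The median of the 4 matched members was 1.43, against 0.081 over all genes with a matched promoter peak.

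The metabolic lists of the liver had hardly any matched peak. Of 11 genes of bile acid synthesis and transport, 6 had a hepatocyte peak alone, among them the uptake carrier Slc10a1 (558 ± 54.3 CPM) and the coenzyme A ligase Slc27a5 (516 ± 42.6), and 4 were over 2-fold higher in hepatocytes when summed. The sum at Baat, which joins bile acids to amino acids, differed by 6.76 (adjusted p = 6.7e-16). Of 13 genes of the urea cycle and amino acid breakdown, 9 had a hepatocyte peak alone and the other 4, Ass1 (1.98), Asl (1.55), Nags (2.31) and Fah (2.27), were over 2-fold higher there when summed. Of 10 glucose and glycogen genes, 6 had a hepatocyte peak alone, including the gluconeogenic Fbp1 (550.0 ± 66.7 CPM) and G6pc (343 ± 62.6), and both matched members were higher in hepatocytes. Gckr differed by 0.91 ± 0.052 (SE, adjusted p = 4.1e-10), with 326 to 384 CPM against 172 to 204. Of 12 drug metabolism genes, 8 had a hepatocyte peak alone, such as the glutathione transferase gene Gsta3 (498 ± 46.6 CPM) and Cyp2e1 (369 ± 41.3). The other 3 with peaks, Aldh1l1 (3.56), Adh1 (4.70) and the P450 reductase gene Por (1.21), were over 2-fold higher when summed.

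Of 16 genes for cardiac transcription factors, 15 had a promoter peak in the cardiomyocyte table, and 8 of the 16 also in the hepatocyte table. The 6 with a cardiomyocyte peak alone were Hand2, Tbx5, Tbx20, Irx4, Isl1 and Myocd, and the peak of Nkx2-5 overlapped a hepatocyte peak over 1 kb from its start site. Of the 3 matched, Srf, which drives muscle genes through the CArG box, spanned 127 to 148 CPM in hepatocytes and 256 to 306 in cardiomyocytes, a difference of -1.0 ± 0.058 (SE, adjusted p = 4.6e-10). Esrrg, an estrogen-related receptor of oxidative metabolism, differed by -0.39 ± 0.12 (SE, adjusted p = 0.00568) with overlapping libraries. Mef2a had 167 to 193 and 129 to 229 CPM and did not pass the test (adjusted p = 0.509). When summed, Nkx2-5 differed by -4.56 (adjusted p = 3.4e-15) and Mef2c by -3.80, but the zinc-finger factor gene Gata4 only by -1.28 and Mef2d by -1.15. Gata6 differed by -0.47 (adjusted p = 0.00944). In D2 alone its difference was 0.056, with a second-genome interval 35.8% as long as the reference interval in the cardiomyocyte table.

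Of 22 sarcomere genes, 9 had a peak in the cardiomyocyte table alone, among them the light chain gene Myl3 (249 ± 68.9 CPM), the troponin gene Tnni3 (215 ± 53.7) and the Z-disc gene Actn2 (163 ± 29.8). Both matched members were over 2-fold higher in cardiomyocytes. Tnnc1, the calcium sensor of the thin filament, spanned 118 to 140.4 CPM in hepatocytes and 291 to 372 in cardiomyocytes, a difference of -1.30 ± 0.065 (SE, adjusted p = 1.1e-10). The nebulette gene Nebl differed by -1.65 ± 0.17 (SE, adjusted p = 3.6e-07). All 5 with partial overlap were over 2-fold higher in cardiomyocytes when summed, from Csrp3 (-1.16) and Tpm1 (-1.75) to Mybpc3 (-4.00) and Ldb3 (-4.54). No cardiomyocyte promoter peak was among those analysed here for Myh6, Myh7, Tnnt2, Myl7, Tcap or Actc1, which define the cell type, and Actc1 had a small one in the hepatocyte table (10.7 ± 1.33 CPM).

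Calcium handling divided into 8 genes of 12 with a cardiomyocyte peak alone and 3 with promoter peaks in both, while Sln had none among those analysed here. The calcium release channel gene Ryr2 (404 ± 65.3 CPM) and Casq2 (427 ± 67.5) were among the 8. The matched members differed little: Atp2a2, the calcium pump SERCA2, by -0.39 ± 0.079 (SE, adjusted p = 0.00028) and the kinase gene Camk2d by -0.36 ± 0.052 (SE, adjusted p = 1.1e-05). Per base of interval Atp2a2 turned to 0.31, and with the shift of all peaks taken out to 0.60, where Camk2d also turned, to 0.065. Of 16 genes for ion channels and gap junctions, 10 had a cardiomyocyte peak alone, led by Kcnh2 and Kcnq1 (404 ± 54.2 CPM). When summed, Kcnip2 differed by -4.50, the pacemaker channel gene Hcn4 by -4.41, the connexin gene Gja1 by -3.68 and Kcnj2 by -2.67, while Gja5 went the other way, by 1.16 (adjusted p = 4.6e-10). Of 6 stress and natriuretic genes, Nppb (57.6 ± 9.36 CPM) and Ankrd1 (129 ± 34.3) had a cardiomyocyte peak alone, Xirp1 differed by -2.49 when summed, and the other 3, Nppa included, had no promoter peak among those analysed here.

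**Figure D4:**
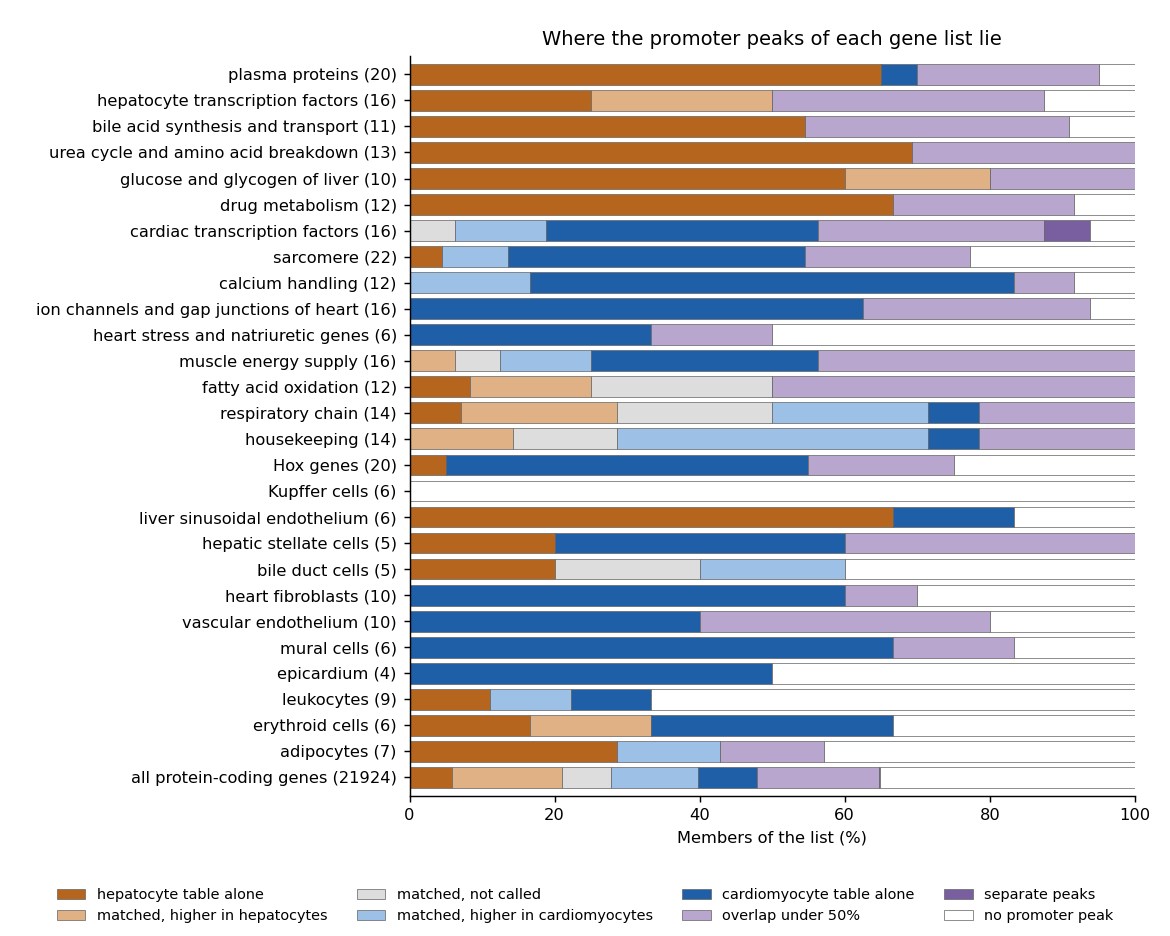
Share of each list's members (x, percent; number listed in parentheses) whose promoter peak lies in the hepatocyte table alone (orange), the cardiomyocyte table alone (blue), a matched peak (light shades, grey where not called), a peak in partial overlap with one of the other table or separate peaks (purples) or none (white). In the liver lists orange covers between 4 of 16 and 9 of 13 members, while over all 21924 protein-coding genes it covers 5.8%.

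Of 16 genes of muscle energy supply, all had a cardiomyocyte promoter peak and 8 a hepatocyte one. The 5 in the cardiomyocyte table alone were the creatine kinase genes Ckm and Ckmt2 (300.1 ± 86.1 CPM), the myoglobin gene Mb, Cox6a2 and Pygm (241 ± 29.0). Summed regions of Hk2 (-6.65), Fabp3 (-6.25), Cox7a1 (-3.74), Ldhb (-3.11) and the insulin-responsive glucose transporter Slc2a4 (-2.61) were over 2-fold higher in cardiomyocytes. Hk2 and Fabp3 had no hepatocyte promoter peak. Their hepatocyte sums (2.64 to 4.19 and 0.38 to 4.61 CPM) came from peaks over 1 kb from their start sites. The second-genome interval of the Hk2 cardiomyocyte peak was 64.6% as long as the reference interval. The sum at Cox8b, a cytochrome oxidase subunit, went the other way, by 1.10 (adjusted p = 4.3e-08). Cox8b had no hepatocyte promoter peak, so the hepatocyte reads of that sum came from a peak over 1 kb from its start site. Of the 4 matched members, Pfkm was higher in hepatocytes (0.54), while Esrra (-0.43) and Pdk4 (-0.26) were higher in cardiomyocytes. Per base of interval Pfkm turned to -0.24 and Pdk4 to 0.18, and with the shift of all peaks taken out Esrra turned to 0.11. Cpt1b had -0.30 (adjusted p = 0.222) when summed, and the second-genome interval of its cardiomyocyte peak was 26.2% as long as the reference interval. Ppargc1a, the coactivator of mitochondrial biogenesis, spanned 252 to 318 CPM in hepatocytes and 177 to 477 in cardiomyocytes, with no call (adjusted p = 0.924). Of 12 fatty acid oxidation genes, 11 had peaks in both tables. Ppara, the receptor that switches on this pathway in the fasting liver, gave 851, 696 and 686 CPM in B6 hepatocytes, 570.4, 559.9 and 509 in D2 hepatocytes, 250.2, 306 and 272 in B6 cardiomyocytes and 282, 316 and 259 in D2 cardiomyocytes, a difference of 1.19 ± 0.10 (SE, adjusted p = 3.1e-08). Etfdh, which passes electrons from this pathway to ubiquinone, was also higher in hepatocytes (0.89), though not per base of interval (-0.045). When summed, 6 of 11 members were higher in hepatocytes, 4 of them over 2-fold, 2 were higher in cardiomyocytes and 3 were not called. Ehhadh, the peroxisomal bifunctional enzyme, differed by 1.28 and the acyl-CoA dehydrogenase genes Acadvl by -0.77 and Acadm by -0.28. The matched Acadl and the promoter shared by Hadha and Hadhb, the trifunctional enzyme, did not pass the test (adjusted p = 0.909 and 0.108).

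The respiratory chain list was even. Of its 9 matched genes, 3 were higher in hepatocytes, 3 higher in cardiomyocytes and 3 not called, none over 2-fold, with a median of -0.13. Sdha differed by 0.50, Uqcrc2 by 0.36 and Ndufs1 by 0.27, and in the other direction Cox4i1 by -0.54, Uqcrc1 by -0.50 and Cyc1 by -0.16. The sign of each of these 6 turned in at least 1 of the 2 counts per base of interval, with the shift of all peaks left in or taken out. Housekeeping genes leaned to cardiomyocytes: of 10 matched, 2 were higher in hepatocytes, Tbp (0.52) among them, 6 were higher in cardiomyocytes and 2 were not called, with a median of -0.36. Eef2 gave 159, 159 and 132 CPM in B6 hepatocytes, 174, 175 and 137 in D2 hepatocytes, 314, 389.8 and 322 in B6 cardiomyocytes and 631, 666 and 622 in D2 cardiomyocytes. Its difference was -1.59 ± 0.13 (SE, adjusted p = 5.2e-08), with a second-genome cardiomyocyte interval 197% as long as the reference one and a difference of -1.19 in B6 alone. Rpl13a differed by -0.74 and Gusb by -0.67. Per base of interval with the shift of all peaks taken out, Rpl13a turned to 0.027 and Gapdh (-0.44) to 0.69.

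Enzymes with a liver and a muscle form, 16 pairs in all, were set side by side. In several pairs the forms lay on opposite sides. Glucose transport had Slc2a2 at 5.54 and Slc2a4 at -2.61 (sums). Slc2a2 had no cardiomyocyte promoter peak, and its cardiomyocyte sum (5.53 to 8.14 CPM) came from peaks over 1 kb from its start site. Glycogen phosphorylase had Pygl at 2.44 (sum) and Pygm in the cardiomyocyte table alone, and pyruvate kinase had Pklr in the hepatocyte table alone (129 ± 18.7 CPM) and Pkm at -3.21 (sum). Fatty acid binding protein had Fabp1 in the hepatocyte table alone (447 ± 48.4 CPM) and Fabp3, with no hepatocyte promoter peak, at -6.25 (sum). In other pairs only 1 form differed much: glycogen synthase had Gys2 in the hepatocyte table alone but Gys1 at -0.35, and lactate dehydrogenase had Ldhb at -3.11 (sum) but Ldha at -0.049, not called. Of the cytochrome oxidase pairs, the liver forms Cox7a2 (0.79) and Cox6a1 (0.20) were higher in hepatocytes, which turned to -0.11 and -0.045 per base of interval. Cox8a was higher in cardiomyocytes (-0.55, turning to 0.073 per base with the shift taken out), and the sum at Cox8b was 1.10 although its own promoter peak is in the cardiomyocyte table (148 ± 30.7 CPM).

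A few pairs went against the name of the form. Pfkl, the liver phosphofructokinase, had a promoter peak in the cardiomyocyte table alone (168 ± 15.3 CPM). The matched peak of Pfkm, the muscle form, was higher in hepatocytes by 0.54 ± 0.052 (SE, adjusted p = 1.2e-07), which turned to -0.24 per base of interval, while its strongest cardiomyocyte peak lay at another start site (231 ± 40.8 CPM). Both acetyl-CoA carboxylase genes, Acaca (99.4 ± 16.2) and Acacb (115 ± 12.3 CPM), had peaks in the hepatocyte table alone. The SERCA3 gene Atp2a3, set beside Atp2a2 among the pairs, had one in the cardiomyocyte table alone (65.8 ± 25.8 CPM). SERCA3 is not named for the liver, so this peak goes against no name.

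Hox genes, which record a cell's position along the body axis, were marked mainly in cardiomyocytes. Of 20 anterior and middle Hox genes, 14 had a cardiomyocyte promoter peak and 3 a hepatocyte one, with summed levels of 691 to 1292 CPM and 14.9 to 29.7 CPM in the libraries. The region shared by Hoxa3 and Hoxa7 differed by -3.71 (adjusted p = 1.2e-11) when summed, and that of Hoxa4 by -3.67. Hoxb2 to Hoxb7 of the list all had a cardiomyocyte peak alone, such as Hoxb7 with 90.4 ± 32.8 and Hoxb2 with 77.7 ± 12.7 CPM.

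Markers of other heart cells mostly moved with the cardiomyocyte libraries. Of 10 vascular endothelial markers, 8 had a cardiomyocyte promoter peak, with a summed level of 2262 to 2494 CPM over the libraries, against 4 and 74.5 to 120.1 CPM in hepatocytes. Egfl7 (773 ± 86.3 CPM), Flt1 (335 ± 41.6), Cdh5 (329.7 ± 16.8) and Kdr (272 ± 22.6) were among them, and Pecam1 and Vwf had no promoter peak among those analysed here. Heart fibroblast markers had 7 of 10 in cardiomyocytes (559 to 674 CPM) against 1 in hepatocytes (30.8 to 54.4), mural markers 5 of 6 (489 to 671) against 1 (51.5 to 64.8), and epicardial markers 2 of 4 (336 to 447) against 0. When summed, the 4 endothelial and 1 fibroblast markers in partial overlap were over 2-fold higher in cardiomyocytes. The 1 such mural marker went the other way, over 2-fold higher in hepatocytes (1.28). For comparison, the sarcomere genes, of which 16 of 22 had a peak, summed to 3147 to 4920 CPM in the same libraries. These sums run over unequal numbers of peaks, 16 for the sarcomere and 8 for vascular endothelium, so they do not compare levels per peak. Ramp2, Pdgfb, Nrarp, Hdac7 and the Hox genes were read in libraries with these marks, and the part of other cell types in their values was not tested. In hepatocytes, 4 of 6 sinusoidal endothelial markers had a peak (73.6 to 203 CPM), 0 of 6 Kupffer cell markers, 3 of 5 stellate markers (42.8 to 101.6), 3 of 5 bile duct markers (136 to 160.0) and 2 of 9 leukocyte markers (89.7 to 150.5). In cardiomyocytes the leukocyte markers also had 2 of 9 (145 to 179 CPM), and the matched Cd68 was the main part of both. Erythroid markers had 2 of 6 in hepatocytes (44.3 to 64.3 CPM) and 3 in cardiomyocytes (163 to 252), and adipocyte markers 4 of 7 (348 to 409.9) and 2 (205 to 235).

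The cell type difference had the same sign in B6 and D2 at 7118 of the 8137 peaks (87.5%) and at 1518 of the 1519 over 2-fold. Of 5090 peaks called in each strain alone, 4996 had the same direction and 94 opposite ones. The strain by cell type term, tested in a fit with 4 group means, was called at 932 peaks (11.5%), with a larger hepatocyte-minus-cardiomyocyte value in D2 at 505 and a smaller one at 427. Without B6 cardiomyocyte replicate 2 the count was 2064, without replicate 1 of that group 581 and without D2 cardiomyocyte replicate 2 549. Interval length on the second genome moved with this term. At 603 matched peaks the second-genome interval of the cardiomyocyte table was over 10% shorter than the reference interval, and there the D2 cardiomyocyte level had a median of 79.5% of the B6 level (quartiles 66.4 and 90.4%), against 101% (91.0 and 114%) at the 7509 within 10%. The term was called at 226 of the 603 (37.5%), 218 of them toward a larger value in D2, and at 705 of the 7509 (9.39%). At 7292 peaks with lengths within 10% in both tables, fitted alone, 594 (8.15%) were called, 255 toward a larger value in D2 and 339 toward a smaller one.

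St3gal4, a sialyltransferase gene, shows the pattern of a shortened interval. It gave 606, 596 and 581 CPM in B6 hepatocytes, 558, 562 and 572 in D2 hepatocytes, 505, 515 and 499 in B6 cardiomyocytes and 69.8, 74.3 and 101 in D2 cardiomyocytes, and its second-genome interval in the cardiomyocyte table was 6.58% as long as the reference interval. Coq8a, of ubiquinone synthesis, gave 485, 475 and 528 CPM in B6 hepatocytes, 661, 573 and 457 in D2 hepatocytes, 587, 713 and 705 in B6 cardiomyocytes and 274, 264 and 240.3 in D2 cardiomyocytes, with a second-genome interval of 36.9%. In both only the D2 cardiomyocyte libraries stood apart, and the part of interval length in this was not tested.

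At peaks with near-equal lengths the term was also called where the strains differed in hepatocytes. The peaks of this paragraph and the next were named after their values were seen. Adra1d, an alpha-1 adrenergic receptor gene, gave 5.28, 8.04 and 4.38 CPM in B6 hepatocytes, 139, 117 and 117 in D2 hepatocytes, 147, 172 and 116 in B6 cardiomyocytes and 159, 189 and 166 in D2 cardiomyocytes (chr2:131557227-131563378). Only B6 hepatocytes were low, so the difference was -4.65 in B6 and -0.48 in D2 (adjusted p of the term 2.6e-09). St3gal6, a relative of St3gal4, gave 147, 144 and 136 CPM in B6 hepatocytes, 33.8, 40.2 and 35.8 in D2 hepatocytes, 191, 192 and 199 in B6 cardiomyocytes and 211, 179 and 179.7 in D2 cardiomyocytes. Here only D2 hepatocytes were low, and the difference was -0.45 in B6 and -2.38 in D2 (adjusted p of the term 4.3e-09). Crim1, a transmembrane protein that binds bone morphogenetic proteins, followed the same order, with 84.9, 84.1 and 92.3 CPM in B6 and 15.8, 23.2 and 16.3 in D2 hepatocytes against 251, 272 and 232 and 232, 246 and 253 in cardiomyocytes.

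Apobec3, a cytidine deaminase gene that restricts retroviruses, was low in B6 hepatocytes (16.7, 21.4 and 15.5 CPM) against D2 hepatocytes (65.2, 63.1 and 64.3), with 153, 133 and 156 and 129, 129.8 and 118 in cardiomyocytes. Rab6b, a Golgi GTPase gene, was lower in D2 in both cell types, from 45.8, 73.0 and 54.9 to 2.32, 3.39 and 2.69 CPM in hepatocytes and from 202, 227 and 204 to 93.0, 114 and 103 in cardiomyocytes. The size of the fall differed between the cell types (adjusted p of the term 1.4e-07). At Robo1, a guidance receptor gene, the order of the cell types turned over: it gave 100.5, 118 and 107 CPM in B6 hepatocytes, 15.4, 18.1 and 11.9 in D2 hepatocytes, 37.6, 51.4 and 30.1 in B6 cardiomyocytes and 49.9, 73.7 and 68.7 in D2 cardiomyocytes. The difference was 1.46 in B6 and -2.07 in D2 (adjusted p of the term 1.1e-07). The carbohydrate kinase gene Fggy turned over as well, from 0.69 in B6 to -1.86 in D2, with hepatocyte levels of 92.7, 96.3 and 93.1 CPM in B6 and 6.12, 7.64 and 4.03 in D2. Of the 94 peaks with opposite calls, 56 had near-equal lengths.

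**Figure D5:**
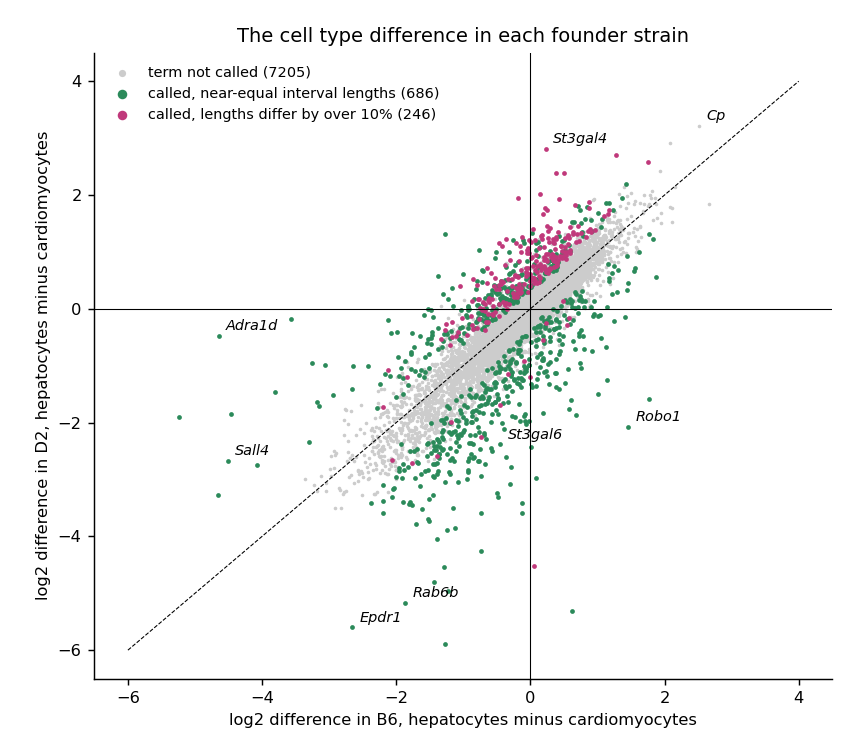
The log2 difference, hepatocytes minus cardiomyocytes, in B6 (x) and in D2 (y) at 8137 matched peaks; coloured points are the 932 with a strain by cell type term at adjusted p under 0.05, green with near-equal interval lengths on both genomes and pink with lengths that differ by over 10%, and the dashed line marks equal differences. Most points lie along the dashed line, and the pink points lie mainly above it.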

How the data were processed

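H3K4me3 ChIP-seq was analysed from 2 tables of read counts per peak, deposited by the authors, 1 per cell type. The processing notes of the submitters list the tools CASAVA 1.8, BWA 0.5.10 and MACS 1.4.2 and the build mm10; settings and how the count intervals on the second genome were made are not given in the sources used here. Columns were assigned to samples by their names. The deposited counts were used unnormalised. Each table counts its own intervals, so a matched peak is read over intervals of different width. Deposited interval coordinates are printed as given (base numbering not stated).

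Peaks were matched with bedtools 2.31.1 (50% reciprocal overlap) and annotated from GENCODE start sites (promoter: within 1 kb). edgeR 4.0.16 in R 4.3.3 fitted matched peaks with filterByExpr, TMM and a robust quasi-likelihood model of strain plus cell type; adjusted p is Benjamini-Hochberg over all 8137 peaks (or all 12928 clusters). Standard errors are the log2 difference over the square root of F. A peak was called at adjusted p under 0.05. On simulated counts the fit called 99% of 100 peaks changed 2-fold, 99% of 100 changed 4-fold and 0.126% of 7937 unchanged ones. The simulation changed only 200 peaks, evenly in both directions, with no difference in interval width and the spread fitted to these data. It therefore does not test the effect of width, or of scaling where most peaks differ. Named promoters were the 10 per direction with the largest difference among called, non-overlapping peaks of at least 10 CPM, 5 per direction elsewhere, and the 10 with the highest level among peaks of 1 table; list examples favour high levels. Some genes that these rules or lists name are not reported here. Tables were handled with Python 3.11.15 and pandas 2.3.3; DESeq2 1.42.0, other scalings, filters, overlaps and leave-outs were alternatives. The comparison and the gene lists were chosen with earlier results of these data known. The summed clusters, recentred width, near-equal-length fit and the both-genome fit of the strain by cell type term were added after seeing the data.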

Additional observations from a re-analysis of the deposited data

Results flagged for a closer look

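At 10 of the 72 named matched peaks (13.9%; 11.5% of all matched peaks) the cell type difference in D2 differed from that in B6 by edgeR's test of the strain by cell type term. Given as the log2 difference in D2 minus that in B6, the value was Lrrc3 0.83 (adjusted p = 0.0179) among promoters higher in hepatocytes. Promoters higher in cardiomyocytes gave Zfyve28 1.38 (adjusted p = 0.0361), Epdr1 -2.94 (adjusted p = 8e-05) and Sall4 1.84 (adjusted p = 8.6e-05). The set away from start sites gave the intron peak of Syne3 -4.63 (adjusted p = 6.8e-08). Among list members and isozymes they were Mef2a 0.44 (adjusted p = 0.0323), Ppargc1a 0.71 (adjusted p = 0.0398), Ppara -0.50 (adjusted p = 0.0331), Eef2 -0.79 (adjusted p = 0.00176) and Cox7a2 0.43 (adjusted p = 0.0495). Of the 10, 7 had near-equal interval lengths on both genomes. The exceptions were Lrrc3, Mef2a and Eef2, whose second-genome intervals in the cardiomyocyte table were 35.6%, 63.8% and 197% as long as the reference intervals, and the part of length in their values was not tested. At Epdr1, Sall4 and Syne3 the difference kept its direction in both strains, while at Mef2a and Ppargc1a the sign differed (-0.14 in B6 and 0.29 in D2, and -0.36 and 0.35). Groups of 3 libraries are too small for a test of single outlying libraries.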

How the results depend on the processing

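The 5 counts of matched peaks stayed within 1.5 times their reported values under DESeq2, its size factors, unscaled totals, each table's own total, no filter, 50 reads in every library of a cell type, B6 alone and near-equal interval lengths. At 80% reciprocal overlap (2138 peaks) 1535 were called, 779 higher in hepatocytes and 756 in cardiomyocytes, 30 and 178 of them over 2-fold. On peaks called on both genomes (5124) they were 4077, 2104, 1973, 84 and 606; both alternatives test fewer peaks. Summed clusters (12928) gave 10993, 5570, 5423, 1387 and 3207. Per base of interval 1018 were higher in hepatocytes, 37 over 2-fold, and 5029 in cardiomyocytes; recentred, 117 and 548 were over 2-fold. D2 alone gave 402 over 2-fold higher in hepatocytes, and a test against a 2-fold change (glmTreat) called 995 peaks. Without each library in turn the counts ran from 6273 to 6434 called, 3151 to 3232 higher in hepatocytes, 3108 to 3202 in cardiomyocytes, and 245 to 283 and 1227 to 1304 over 2-fold. The term called at 932 peaks ran from 549 to 2064, and was called at 504 peaks of those on both genomes and 594 of near-equal length; the cause of the former range was not tested. With each library left out, summed clusters ran from 10820 to 10987, 5470 to 5598, 5316 to 5400, 1364 to 1448 and 3164 to 3231. Equal replicate numbers are the only link between libraries of the cell types: their correlations ran from -0.17 to 0.20, with 3 of 6 over 0.1, so they were not treated as pairs. A fit with the replicate number as a block called 6225 peaks, 3129 higher in hepatocytes and 3096 in cardiomyocytes, 262 and 1258 over 2-fold.

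Signs that differed from the reported one were as follows, as log2 differences of hepatocytes minus cardiomyocytes. Per base of the own interval, Cebpa had -0.019, Atp2a2 0.31, Pfkm -0.24, Ppargc1a 0.74, Pdk4 0.18, Etfdh -0.045, Ndufs1 -0.024, Sdha -0.095, Uqcrc1 0.015, Uqcrc2 -0.30, Cox5a 0.086, Gapdh 0.41, Hprt -0.27, Cox6a1 -0.045 and Cox7a2 -0.11. Recentred per base, Atp2a2 had 0.60, Camk2d 0.065, Ppargc1a 1.03, Esrra 0.11, Pdk4 0.46, Uqcrc1 0.30, Uqcrc2 -0.013, Cyc1 0.074, Cox4i1 0.21, Cox5a 0.37, Gapdh 0.69, Rpl13a 0.027 and Cox8a 0.073. Scaled by each table's own total, Ppargc1a had 0.064, Ndufb8 0.050, Rplp0 0.047 and Ldha 0.030. At 80% overlap, Cyc1 had 0.056, Cox5a 0.053 and Atp5b 0.090. In B6 alone, Mef2a had -0.14 and Rplp0 0.022. In D2 alone, Ppargc1a had 0.35, Acadl -0.0047, Ndufb8 0.035, Cox5a 0.024 and Hprt -0.11. Under the replicate block, Ppargc1a had 0.011. With 50 reads required, Acadl had -0.023 and Hprt -0.026. On both genomes, Acadl had -0.019. With 1 library left out, values of either sign arose, over ranges of Ppargc1a -0.11 to 0.12, Acadl -0.070 to 0.072, Ndufb8 -0.064 to 0.014 and Hprt -0.044 to 0.034. Of the summed regions, Gata6 turned to 0.056 and Cpt1b to 0.54 in D2 alone. The causes were not tested. Of these genes, Mef2a, Ppargc1a, Acadl, Ndufb8, Cox5a, Atp5b, Hprt, Rplp0 and Ldha were not called in the reported fit. A promoter window of 2.5 kb in place of 1 kb moved 1 list count by over 1.5 times, and scaling by each table's own total moved 3.

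The D2 cardiomyocyte libraries were the shallowest of the 4 groups, and the part of their depth in the calls was not tested. Among the 2035 peaks of lowest level (4.98 to 55.3 CPM) 77.1% were called, against 80.6% of the 2034 of highest level.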

Other observations

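Chromosome X leaned toward hepatocytes. Of its 281 matched peaks, 140 (49.8%) were higher in hepatocytes and 79 (28.1%) higher in cardiomyocytes by edgeR's quasi-likelihood test, against 39.6% and 39.3% of all 8137. The median log2 difference was 0.21, against 0.0036 over all matched peaks. Over 2-fold, 12 (4.27%) were higher in hepatocytes and 33 (11.7%) in cardiomyocytes, against 3.15% and 15.5% of all matched peaks. All libraries were from female mice. X peaks were narrower in cardiomyocytes (median 2709 bp) than in hepatocytes (3933 bp), as were matched peaks of all chromosomes (4173 and 5454 bp). The part of width in the shift on X was not tested.

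Differences over 2-fold were more often toward cardiomyocytes at every level of the mark, and most often at weak peaks. In the 2035 matched peaks with the lowest level (4.98 to 55.3 CPM), 778 (38.2%) were over 2-fold higher in cardiomyocytes and 65 over 2-fold higher in hepatocytes. The numbers were 290 and 64 in the next 2034 peaks by level and 86 and 54 in the 2034 after those. In the 2034 with the highest level (165.6 to 955 CPM), 109 (5.36%) and 73 were. The weakest peaks had nearly equal median widths in the tables (1992 and 1994 bp), and the strongest 8759.5 bp in hepatocytes and 7879 bp in cardiomyocytes. At the 1263 peaks of all levels over 2-fold higher in cardiomyocytes, the median width was 2270 bp in hepatocytes and 3007 bp in cardiomyocytes. The part of width, and of the need for a peak in both tables, in this pattern was not tested.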
